A study of Mus musculus with 4 samples.

Results

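The 8 genes Cacna1a, Cacna1b, Cacna1c, Cacna1d, Cacna1e, Cacna1g, Cacna1h and Cacna1i encode pore-forming subunits of voltage-gated calcium channels. They were taken by symbol from the gene column of 4 count matrices, and all 8 were found among 31053 genes. The matrices hold single cells from the L4 and L5 dorsal root ganglia (DRG) of Pirt-EGFPf mice on a C57BL/6 background, aged 7 to 8 weeks, 7 days after surgery, which was either a loose tying of the sciatic nerves of both sides (chronic constriction injury, CCI) or a sham operation. Each of the 4 libraries pools 20 ganglia of 5 animals, and each surgery has 2 libraries, a male and a female one (Male-Sham and Female-Sham for sham surgery, Male-CCI and Female-CCI for the injury). Animals of every group were heterozygous for a membrane-bound EGFP that replaces the coding sequence of Pirt and is driven by the endogenous Pirt promoter, and cells were sorted for EGFP before droplet-based sequencing. Sorting on EGFP leaves out neurons that lack Pirt, many of them of the NF kind described below, and the NF classes were therefore counted incompletely. All animals of a litter were operated alike, and litter and surgery therefore cannot be told apart. The libraries are pools of animals, and p-values therefore measure only the spread between pools. The 2 pools of a surgery also differ in sex, and sex is part of that spread. Within the CCI libraries, p-values measure how far a difference agrees between the 2 pools.

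Voltage-gated calcium channels open when the membrane depolarises and let calcium into the cell, where it triggers transmitter release, shapes firing and starts signalling to the nucleus. Cacna1a forms P/Q-type, Cacna1b N-type and Cacna1e R-type channels, which open at strong depolarisation; the first pair supplies most of the calcium for release at synapses, and N-type channels in the spinal cord are the target of the analgesic ziconotide. Cacna1c and Cacna1d form L-type channels, known for coupling activity to gene expression, and Cacna1g, Cacna1h and Cacna1i form T-type channels, which open near the resting potential and help neurons to fire in bursts.

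Doublets were removed, and a cell was kept if it had 1500 genes or more and if mitochondrial genes gave no more than 10% of its UMIs (unique molecular identifiers, which count captured RNA molecules). This left 2947 to 5548 cells per library, of which 3281 and 5398 were sham neurons and 2817 and 3637 were CCI neurons, male pool first. Neurons carried 159902783 to 189489772 UMIs per library, and their median depth was 32490 to 56457 UMIs. Clustering gave 28 neuronal clusters, of which all but 1 were assigned to peptidergic (PEP), non-peptidergic (NP), neurofilament (NF) and C-low-threshold-mechanoreceptor (cLTMR) classes or to a CCI-induced class by markers. A neuron was called Sprr1a+ where its normalised Sprr1a value exceeded 1; Sprr1a is a gene induced by axon injury. Sprr1a+ neurons were 1.28% and 2.67% of the sham neurons and 52.1% and 49.2% of the CCI neurons, and 83.6% and 85.2% of those in CCI lay in CCI-induced-like clusters. Levels are given as CPM, the UMIs of a gene for each 1000000 UMIs of the named cells. Each UMI tags a transcript's 3′ end and is not scaled by length, so levels are compared between cells and libraries and not between genes.

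The members lie on 8 chromosomes in GRCm38 and span 59.5 to 609 kb between the outer ends of their annotated transcripts, from Cacna1h (chromosome 17, 25374285 to 25433783, minus strand) to Cacna1c (chromosome 6, 118587240 to 119196418, minus strand). RefSeq's promoter table (GRCm38.p6, 250 bases before to 50 after a start site) held 8 promoters for 5 of the 8 members. A broadly expressed and a class-restricted member are shown here, Cacna1b (chr2:24763103-24763402, minus strand) and Cacna1i (chr15:80286988-80287287, plus strand), with the 50 bases from the annotated start in capitals.
Cacna1b: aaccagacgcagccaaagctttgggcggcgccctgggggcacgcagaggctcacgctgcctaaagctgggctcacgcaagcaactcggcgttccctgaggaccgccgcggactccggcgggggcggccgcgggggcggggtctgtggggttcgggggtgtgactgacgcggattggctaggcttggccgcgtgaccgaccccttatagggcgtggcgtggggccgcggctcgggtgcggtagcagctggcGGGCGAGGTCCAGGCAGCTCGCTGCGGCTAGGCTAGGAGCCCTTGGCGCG
Cacna1i: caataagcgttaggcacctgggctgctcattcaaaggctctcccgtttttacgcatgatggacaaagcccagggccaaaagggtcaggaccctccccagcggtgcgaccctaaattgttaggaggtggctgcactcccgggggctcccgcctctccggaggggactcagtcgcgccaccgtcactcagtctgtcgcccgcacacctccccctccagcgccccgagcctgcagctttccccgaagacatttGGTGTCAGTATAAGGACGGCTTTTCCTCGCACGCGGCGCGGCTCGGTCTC
The GC content of the Cacna1b promoter was 72.3% and that of the Cacna1i promoter 62.7%, against a median of 52.7% over 32851 promoters in the table. Neither window held TGACTCA (the AP-1 motif), TGACGTCA (the cyclic AMP response element) or TATAAA on either strand. These letters occurred in 5.20%, 1.79% and 13.6% of all promoters.

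Sham neurons were first described by class. In the plot of sham levels by class each member had its own order, and the 2 sham libraries lay close together in that order for the well-counted members. These levels are a description, and no test was made between classes because the clusters were built from the same cells.

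**Figure D1:**
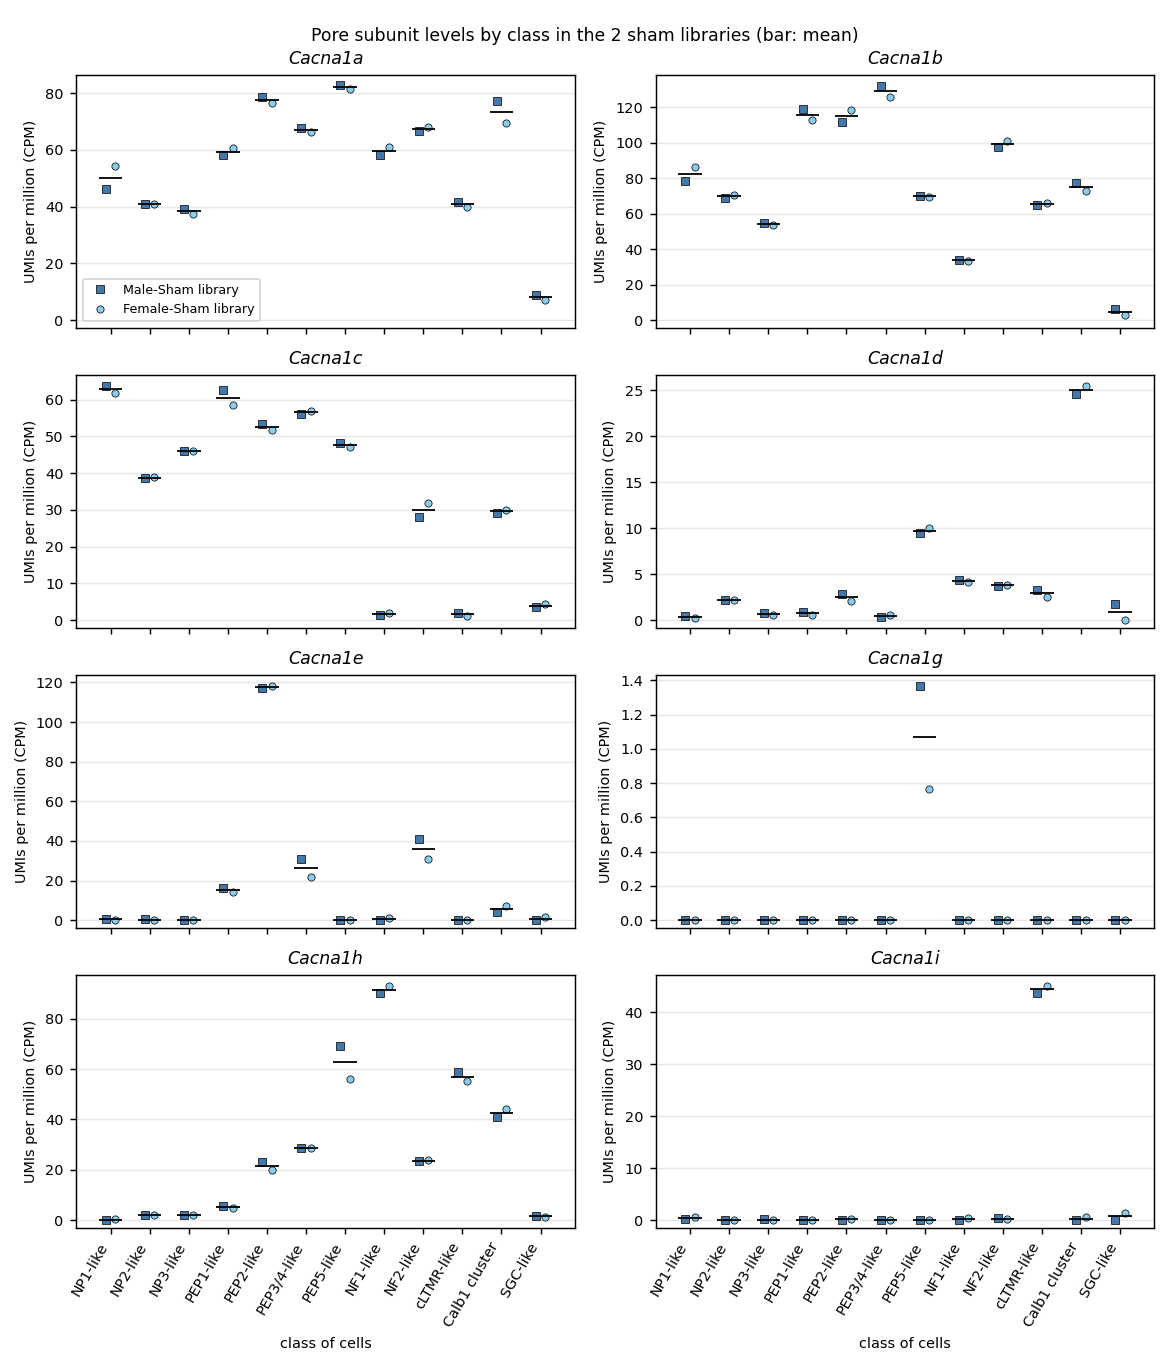
Level (CPM, vertical axis) of each member in the neuron classes of the 2 sham libraries (squares male, circles female, bar their mean), one panel per gene with its own axis. Cacna1a and Cacna1b were counted in every class, Cacna1e peaked in PEP2-like, Cacna1h in NF1-like and Cacna1i in cLTMR-like neurons.

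Among the release-associated subunits, Cacna1a (P/Q-type) varied least between named classes. It ranged from 39.3 and 37.6 CPM in NP3-like neurons (Male-Sham and Female-Sham) to 82.8 and 81.6 CPM in PEP5-like neurons. PEP2-like neurons (78.7 and 76.5 CPM) came next to the top, and NP2-like (40.9 and 40.9 CPM) and cLTMR-like neurons (41.8 and 40.1 CPM) next to the bottom. The intervals of NP2-like and cLTMR-like neurons overlapped, so their order cannot be read.

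Cacna1b (N-type) was highest in PEP3/4-like neurons, at 132 and 126 CPM, followed by PEP1-like neurons at 119 and 113 CPM and PEP2-like neurons at 111 and 118 CPM. The last 2 overlapped. NF1-like neurons had the lowest Cacna1b level among the named classes, 33.9 and 33.5 CPM, and both libraries there lay below every value of the other classes. A Cacna1b UMI was seen in 92.3% and 89.8% of all sham neurons.

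Cacna1e (R-type) was concentrated in PEP2-like neurons, at 117 and 118 CPM. The PEP2-like class joined a Dcn-led cluster at 157 and 172 CPM and a Stum-led cluster at 73.7 and 76.2 CPM. NF2-like neurons followed at 40.8 and 30.9 CPM and PEP3/4-like neurons at 31.0 and 21.7 CPM, which overlapped. Within the PEP1-like class the Fgg-led cluster held 33.2 and 28.6 CPM of Cacna1e and the Cldn9-led cluster 6.11 and 4.56 CPM, and the libraries of these clusters did not overlap.

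Cacna1c, the main L-type pore, was present in peptidergic and non-peptidergic classes and nearly missing from 2 others. NP1-like neurons had 63.7 and 61.9 CPM and PEP1-like neurons 62.6 and 58.6 CPM, which overlapped. NF1-like neurons had 1.31 and 1.84 CPM and cLTMR-like neurons 1.84 and 1.26 CPM, which could not be ordered either. Cacna1d, the other L-type pore, was led by an unnamed cluster with Calb1 and Rxfp1 among its leading genes, at 24.6 and 25.4 CPM. That cluster had enough PEP5 markers for the name but failed the check on leading genes given under processing. Next came PEP5-like neurons with 9.44 and 9.99 CPM of Cacna1d and NF1-like neurons with 4.33 and 4.17 CPM.

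The 3 T-type pores had different classes at their top. Cacna1h was highest in NF1-like neurons, at 90.2 and 92.9 CPM, which came from a Ntng1-led cluster at 131 and 122 CPM, whereas a Pvalb-led cluster of the same class had 0.737 and 0.406 CPM. PEP5-like neurons (69.1 and 56.2 CPM) and cLTMR-like neurons (58.7 and 55.2 CPM) followed and overlapped. NP1-like neurons had the lowest Cacna1h level, 0 and 0.282 CPM.

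Cacna1i was almost limited to cLTMR-like neurons, the Th-expressing cells that sense gentle touch on hairy skin. They held 43.7 and 44.9 CPM, against at most 0.6 CPM in any other neuron class of the sham libraries. Cacna1i is also a leading gene of the Th-led cluster in that class, so this level partly restates how the class was formed. A Cacna1i UMI was seen in 82.9% (exact 95% binomial interval 78.6 to 86.6%) and 78.0% of the sham cLTMR-like neurons, whereas satellite-glia-like cells, which should lack the gene, had one in at most 0.690% of cells, at median depths of 4188 to 5125 UMIs against 38808.5 to 56031 UMIs. Thinned to 2000 UMIs per cell, the cLTMR-like shares were 8.54% and 8.75%, and the satellite-glia-like shares 0% and 0.690%.

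Cacna1g gave 12 and 9 UMIs over all neurons of Male-Sham and Female-Sham, and all of them lay in PEP5-like neurons, the Trpm8-marked cold-sensing class. PEP5-like neurons thus held 1.37 and 0.768 CPM of Cacna1g. The limit that a count of 0 allows (3 UMIs) is 0.0158 to 0.0188 CPM over all neurons of a library and higher in single classes, and limits and intervals cover counting error only.

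Over all neurons, CCI was compared with sham by edgeR's quasi-likelihood test on the summed counts, and a gene passed where its Benjamini-Hochberg adjusted p was below 0.05 and its change exceeded 0.5 on the log2 scale. Of the 8 members, 3 fell and none rose past both limits, against 27.8% of 17233 tested genes passing (15.2% upward and 12.7% downward). The 3 were Cacna1e, Cacna1h and Cacna1i. The median log2 change was -0.05 over the members and -0.01 over all genes.

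Cacna1e had 15.4 and 15.9 CPM in Male-Sham and Female-Sham and 8.57 and 8.49 CPM in Male-CCI and Female-CCI. Cacna1h had 27.1 and 25.5 CPM in sham and 15.0 and 16.1 CPM in CCI, and Cacna1i had 5.35 and 6.32 CPM in sham and 2.02 and 3.44 CPM in CCI. In each of these genes both CCI libraries lay below both sham libraries. The log2 change of Cacna1e was -0.82 ± 0.06 (SE, 1.76-fold lower, edgeR adjusted p = 7.09e-05), that of Cacna1h -0.70 ± 0.06 (1.62-fold lower, adjusted p = 1.39e-04) and that of Cacna1i -1.04 ± 0.26 (2.06-fold lower, adjusted p = 0.0243). The Cacna1i call was lost without Male-Sham, without Female-Sham and with no filter on low counts.

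The class that held nearly all Cacna1i also took a smaller share of the CCI neurons. cLTMR-like neurons were 11.1% and 12.5% of the sham neurons and 4.05% and 5.72% of the CCI neurons, while Cacna1i inside the class was 43.7 and 44.9 CPM in sham and 48.5 and 53.1 CPM in CCI. In summed counts, fewer cells of a type and less RNA per cell cannot be told apart.

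The release-associated members moved little over all neurons. Cacna1a had 55.4 and 56.2 CPM in sham and 59.1 and 59.9 CPM in CCI (log2 change 0.15 ± 0.04, adjusted p = 0.0134), which did not reach the limit on size although the libraries did not overlap. With the limit on size set aside, 5 of the 8 members and 55.0% of all genes had an adjusted p below 0.05. Cacna1b had 87.0 and 89.2 CPM in sham and 89.0 and 93.3 CPM in CCI (0.10 ± 0.05, adjusted p = 0.106), and its libraries overlapped.

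Of the L-type pores, Cacna1c was at 39.9 and 40.3 CPM in sham and 33.2 and 36.3 CPM in CCI (log2 change -0.15 ± 0.05, adjusted p = 0.0399, short of the limit on size). Cacna1d was at 2.62 and 2.36 CPM in sham and 2.52 and 2.42 CPM in CCI (0.05 ± 0.11, adjusted p = 0.743). Its libraries overlapped. Cacna1g, the remaining T-type pore, was at 0.074 and 0.0475 CPM in sham and 0.0676 and 0.0563 CPM in CCI (0.10 ± 0.43, adjusted p = 0.852), from 9 to 12 UMIs per library.

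**Figure D2:**
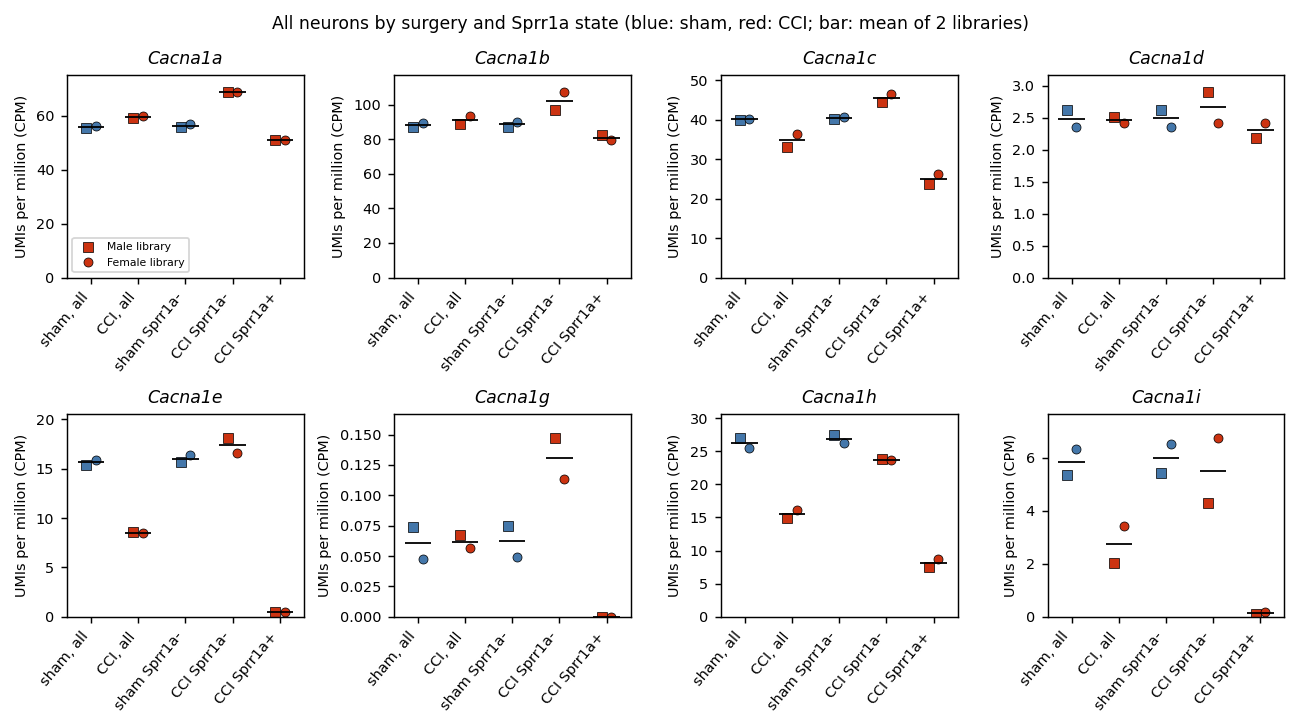
Level (CPM, vertical axis) of each member over all neurons of sham and CCI and over their Sprr1a- and the CCI Sprr1a+ neurons (squares male, circles female, bar their mean, blue sham, red CCI), one panel per gene. Cacna1e, Cacna1h and Cacna1i were lower over all CCI neurons than over all sham neurons and lowest in the CCI Sprr1a+ neurons.

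Within the CCI libraries, Sprr1a+ neurons were then set against Sprr1a- neurons, which asks how the pores stand in cells with an injury mark and in cells without one from the same animals. Cacna1g had too few counts to be tested. Of the other 7 members, 4 fell and none rose, against 45.6% of 16241 tested genes passing in either direction and 24.7% downward. These were Cacna1c, Cacna1e, Cacna1h and Cacna1i. Values are given for Male-CCI first and Female-CCI second.

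Cacna1e had 18.1 and 16.6 CPM in Sprr1a- neurons and 0.454 and 0.533 CPM in Sprr1a+ neurons (log2 change -4.96 ± 0.11, 31.2-fold lower, edgeR adjusted p = 5.82e-11). Sprr1a+ neurons thus gave 40 and 43 UMIs of this R-type pore in all. They included 0 and 1 cells of the PEP2-like class, which is richest in Cacna1e, against 134 and 172 among Sprr1a- neurons. Cacna1i had 4.27 and 6.75 CPM in Sprr1a- and 0.102 and 0.186 CPM in Sprr1a+ neurons (-5.07 ± 0.19, 33.7-fold lower, adjusted p = 1.96e-09). The Sprr1a+ neurons included 0 and 1 cLTMR-like cells, against 114 and 207 among Sprr1a- neurons. Where any Sprr1a UMI sufficed to call a neuron Sprr1a+, the log2 change of Cacna1e was -1.67 and that of Cacna1i -1.26, and both passed.

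Cacna1h had 23.8 and 23.7 CPM in Sprr1a- and 7.50 and 8.71 CPM in Sprr1a+ neurons (log2 change -1.38 ± 0.07, 2.60-fold lower, adjusted p = 2.79e-08). Cacna1c had 44.5 and 46.5 CPM in Sprr1a- and 23.6 and 26.3 CPM in Sprr1a+ neurons (-0.69 ± 0.04, 1.62-fold lower, adjusted p = 9.49e-08). Both libraries lay lower in Sprr1a+ neurons for each of these genes. At no more than 5% mitochondrial UMIs the change of Cacna1h was -0.88, which passed.

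The changes of Cacna1a and Cacna1b in Sprr1a+ neurons did not reach the limit on size. Cacna1a was at 68.7 and 68.8 CPM in Sprr1a- and 51.0 and 51.1 CPM in Sprr1a+ neurons (log2 change -0.26 ± 0.03, adjusted p = 5.45e-05). Cacna1b was at 96.7 and 107 CPM in Sprr1a- and 82.5 and 79.4 CPM in Sprr1a+ neurons (-0.16 ± 0.05, adjusted p = 0.0352). On the CPM scale these differences are larger than the fitted ones, since the fit rescales each library by TMM, and for Cacna1a the CPM log2 ratio was -0.43 in both CCI libraries.

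Cacna1d stood at 2.91 and 2.42 CPM in Sprr1a- and 2.19 and 2.42 CPM in Sprr1a+ neurons (log2 change -0.03 ± 0.14, adjusted p = 0.839). Cacna1g gave 11 and 9 UMIs in Sprr1a- neurons and 0 UMIs in Sprr1a+ neurons of either CCI library, which allows up to 0.0341 and 0.0372 CPM.

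Some markers of other cell types moved with the same split. The 9 immune markers summed to 56.2 and 47.2 CPM in Sprr1a+ and 5.02 and 6.38 CPM in Sprr1a- CCI neurons. Cd3e was at 0 in Sprr1a+ neurons of both CCI libraries, and Ptprc in those of Male-CCI. Sums can rest on few genes, as in Sprr1a+ neurons of Female-Sham, which had 59.2 CPM with 7 of the 9 immune markers at 0. There the sum came from C1qb and Cx3cr1 alone. The 10 vascular markers summed to 4.69 and 6.41 CPM in Sprr1a+ and 53.8 and 61.3 CPM in Sprr1a- CCI neurons. The 6 fibroblast markers summed to 8.50 and 9.005 CPM in Sprr1a+ and 5.48 and 6.18 CPM in Sprr1a- neurons and the 7 Schwann cell markers to 511 and 522 CPM against 438 and 495 CPM, while the 8 satellite glia markers overlapped, at 1680 and 1955 CPM against 1876 and 1936 CPM. The part of these markers in the results was not tested.

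Since Sprr1a+ and Sprr1a- neurons differ in their classes, the comparison was repeated inside the subtype classes that held enough of both, NP1-like, NF1-like and NF2-like. They had 98 and 113, 55 and 32, and 82 and 85 Sprr1a+ neurons in Male-CCI and Female-CCI. The CCI-induced-like class, with 1227 and 1525 Sprr1a+ against 41 and 74 Sprr1a- neurons, was not tested by class. Among 14 tests of members in the 3 classes, 6 passed, against 34.2% of all tests in the same classes (23.9%, 43.8% and 34.8% in turn).

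NF2-like neurons had 33.8 and 32.4 CPM of Cacna1e when Sprr1a- and 0.397 and 1.67 CPM when Sprr1a+ (log2 change -4.98 ± 0.34, 31.5-fold lower, edgeR adjusted p = 4.73e-06). Cacna1h in the same class had 29.997 and 27.5 CPM in Sprr1a- and 7.94 and 13.5 CPM in Sprr1a+ neurons (-1.29 ± 0.21, 2.44-fold lower, adjusted p = 0.000899). Both genes were lower in Sprr1a+ neurons of both libraries, and the class is a single cluster in the integrated data. Without integration a second NF2-like cluster held 106 and 108 CCI cells and 0 and 0 sham cells. The NF2-like cluster that sham cells shared then held 42 and 52 CCI cells. Whether the differences hold inside each of these clusters was not tested.

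In NF1-like neurons, Cacna1h had 61.4 and 53.7 CPM in Sprr1a- and 11.5 and 5.88 CPM in Sprr1a+ neurons (log2 change -2.30 ± 0.19, adjusted p = 1.02e-16). Cacna1b there had 29.9 and 39.7 CPM in Sprr1a- and 49.7 and 57.6 CPM in Sprr1a+ neurons (0.94 ± 0.14, adjusted p = 5.5e-08). In this class the N-type pore was thus higher in Sprr1a+ neurons. Cacna1c rose from 2.42 and 1.22 CPM to 3.33 and 5.29 CPM (1.29 ± 0.54, adjusted p = 0.0386), a call that was lost with DESeq2, with no filter on low counts, with doublets kept and with the Sprr1a limit raised to 2. Where any Sprr1a UMI sufficed, neither Cacna1h (-0.60, adjusted p = 0.435) nor Cacna1b (0.28, adjusted p = 0.53) passed in the NF1-like class.

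The NF1-like class joined the Ntng1-led and the Pvalb-led cluster, and 53 and 30 of its Sprr1a+ neurons lay in the Ntng1-led one. Within the Ntng1-led cluster alone, Cacna1h had 109 and 85.8 CPM in Sprr1a- and 11.6 and 6.32 CPM in Sprr1a+ neurons (log2 change -3.13 ± 0.19, adjusted p = 2.49e-30), and Cacna1b had 32.9 and 41.9 CPM against 49.8 and 57.5 CPM (0.76 ± 0.17, adjusted p = 4.79e-05). Cacna1c was left out of the test there by the filter on low counts. Without integration the Ntng1-led cluster held 36 and 28 CCI cells in place of 86 and 62. NF1-like Sprr1a+ neurons were not tested in that setting, nor at no more than 5% mitochondrial UMIs. Clusters were put in place of classes after the values by class had been seen, and 26.6% of all tests by cluster passed.

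In NP1-like neurons, Cacna1c had 75.1 and 57.6 CPM in Sprr1a- and 32.4 and 36.7 CPM in Sprr1a+ neurons (log2 change -0.88 ± 0.16, adjusted p = 0.000644), a call that was lost with DESeq2 and at no more than 5% mitochondrial UMIs. The Sprr1a+ cells lay almost wholly in a Cd207-led cluster (97 and 111 cells), whereas the Sprr1a- cells lay mostly in a Sst-led cluster (25 and 23 cells). In the Cd207-led cluster, Cacna1c was at 40.2 and 31.0 CPM in its 6 and 12 Sprr1a- cells and at 32.3 and 36.9 CPM in its Sprr1a+ cells, which overlapped. The NP1-like difference in Cacna1c therefore cannot be told apart from the difference between the clusters.

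Against the Sprr1a- neurons of the sham libraries, Sprr1a+ CCI neurons gave 6 passing tests of 14, against 43.6% of all tests in the 3 classes. Cacna1e in NF2-like neurons differed by -5.06 ± 0.36 (33.3-fold lower, adjusted p = 2.49e-06) and Cacna1h by -0.96 ± 0.22 (1.95-fold lower, adjusted p = 0.00377). In NF1-like neurons Cacna1h differed by -2.88 ± 0.18 (7.37-fold lower, adjusted p = 2.64e-08), Cacna1b by 0.97 ± 0.12 (adjusted p = 1.40e-05) and Cacna1c by 1.66 ± 0.45 (adjusted p = 0.00632). The NP1-like difference in Cacna1c was -0.86 ± 0.12 (adjusted p = 1.74e-08), across the same pair of clusters. Where any Sprr1a UMI sufficed, Cacna1e in NF2-like neurons differed by -1.39 and Cacna1h in NF1-like neurons by -1.23, while Cacna1h in NF2-like (-0.39) and Cacna1b (0.48) and Cacna1c (0.93) in NF1-like neurons did not pass. Cacna1c in NF1-like neurons was also lost without Male-Sham and with doublets kept, and Cacna1h in NF2-like neurons was at -0.61 without Male-CCI. The sham libraries serve both this comparison and the one of Sprr1a- neurons given further on.

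**Figure D3:**
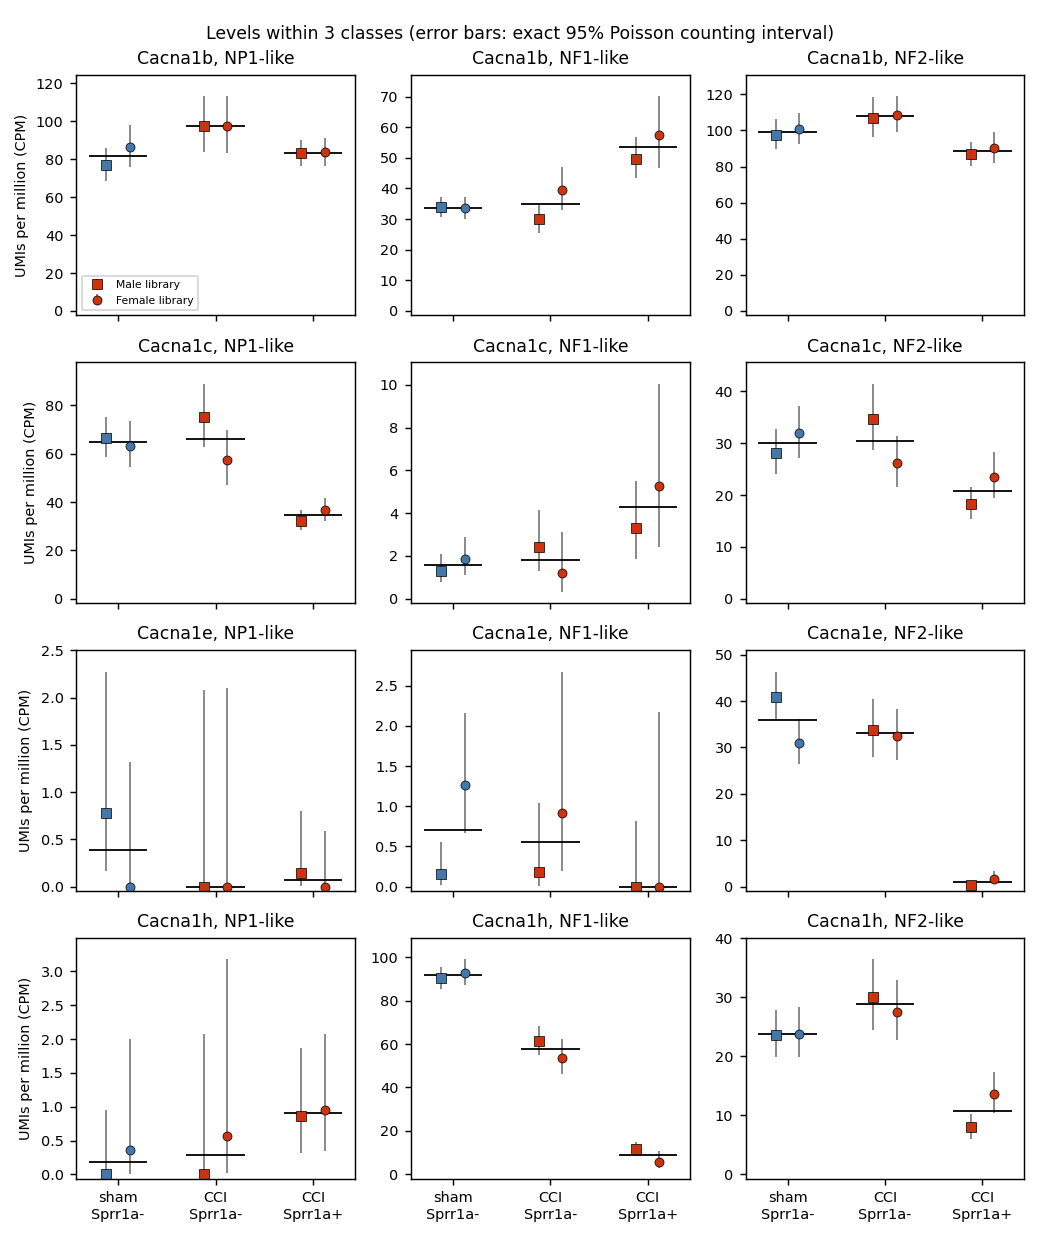
Level (CPM, vertical axis) of Cacna1b, Cacna1c, Cacna1e and Cacna1h in NP1-like, NF1-like and NF2-like neurons, for sham Sprr1a-, CCI Sprr1a- and CCI Sprr1a+ cells (squares male, circles female, error bars exact 95% Poisson intervals). Cacna1e dropped in NF2-like and Cacna1h in NF1-like Sprr1a+ neurons, and Cacna1b was higher in NF1-like Sprr1a+ neurons.

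Whether the shift between Sprr1a+ and Sprr1a- neurons itself differed between the 3 classes was tested with an interaction term for 6 members, and 3 passed, against 26.3% of all genes (no limit on size in this test). These were Cacna1b (edgeR adjusted p = 4.84e-05), Cacna1h (0.00676) and Cacna1c (0.0156). All 3 were lost at no more than 5% mitochondrial UMIs (adjusted p = 0.863, 0.249 and 0.678 in the same order) and without integration. In both of these settings 2 classes were tested in place of 3, NP1-like and NF2-like. The NF1-like class was not tested there, so these settings cannot show whether its shift differs from the others. Where any Sprr1a UMI sufficed, 9 classes were tested, and Cacna1b (0.116) and Cacna1h (0.777) were lost. In the main test Cacna1e gave 0.326, Cacna1d 0.445 and Cacna1a 0.691. Cacna1h is near 0 in NP1-like neurons, and the Cacna1c value carries the cluster difference just described.

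Sprr1a- neurons of CCI were compared with Sprr1a- neurons of sham in 10 classes, which asks whether neurons without the injury mark keep their pores after the injury. Among 53 tests of members 1 passed, against 3.25% of all tests in these classes.

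The test that passed was Cacna1h in NF1-like neurons, where 1.12% of genes passed. The sham libraries had 90.2 and 92.9 CPM and the CCI libraries 61.4 and 53.7 CPM (log2 change -0.62 ± 0.09, edgeR adjusted p = 0.00542). It was lost without Female-CCI (adjusted p = 0.0574) and where any Sprr1a UMI sufficed for the Sprr1a+ call (adjusted p = 0.401). The Ntng1-led cluster, which carries this Cacna1h, had 94 and 120 Sprr1a- cells in sham and 33 and 32 in CCI, beside 54 and 45 and then 31 and 22 in the Pvalb-led cluster. Within the Ntng1-led cluster Cacna1h was at 131 and 122 CPM in sham and 109 and 85.8 CPM in CCI (-0.28, adjusted p = 0.274).

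Cacna1a had a positive estimate in 10 of 10 classes, from 0.18 to 0.34 on the log2 scale. It had an adjusted p below 0.05 in 5 of them (NP2-like 0.0335, PEP1-like 0.0226, PEP2-like 0.0153, PEP3/4-like 0.0177 and cLTMR-like 0.0310), and no estimate reached the limit on size. The classes share the same 4 libraries and are not independent, and Cacna1b was positive in 9 and Cacna1c in 8 of the 10 classes. Without the limit on size 4.84% of all tests passed upward. At no more than 5% mitochondrial UMIs the estimate of Cacna1a in PEP5-like neurons was -0.03. DESeq2 gave the same direction in all 10 classes with adjusted p of 0.072 to 0.806.

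**Figure D4:**
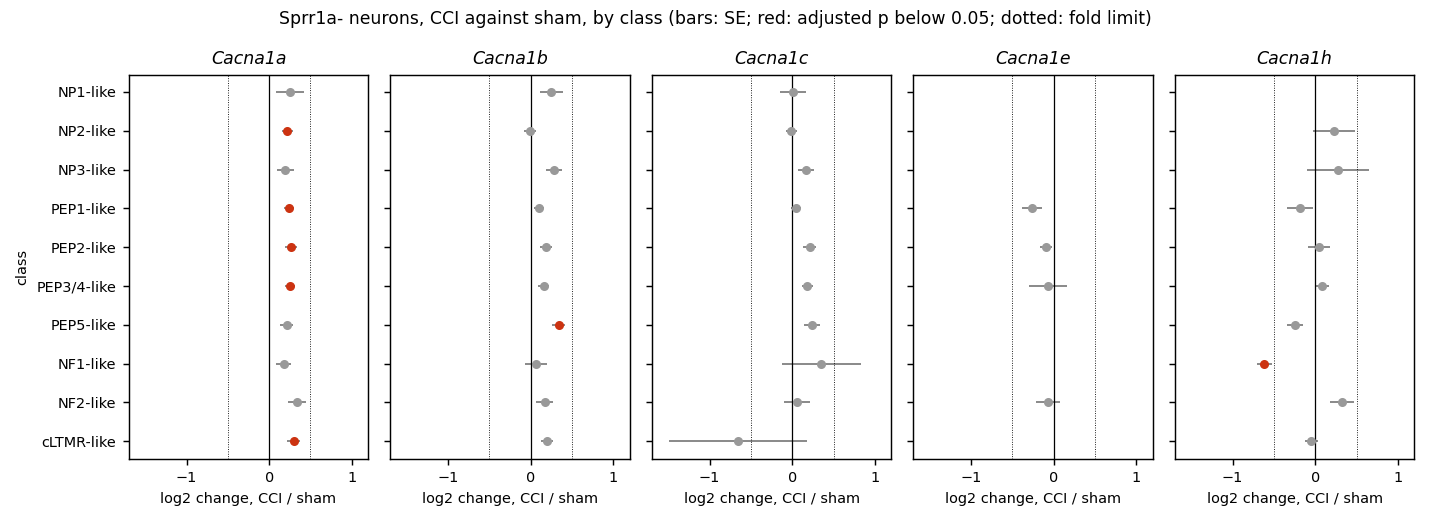
Log2 change (horizontal axis, ± SE) between Sprr1a- neurons of CCI and of sham for Cacna1a, Cacna1b, Cacna1c, Cacna1e and Cacna1h in the neuron classes tested, red where edgeR's adjusted p was below 0.05 and dotted lines at the limit of 0.5. Cacna1a lay to the right of 0 in all 10 classes, and Cacna1h in NF1-like neurons was the point past both limits.

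The classes rich in Cacna1e gave small estimates. Cacna1e changed by -0.09 ± 0.07 in PEP2-like (adjusted p = 0.495), by -0.07 in NF2-like, by -0.07 in PEP3/4-like and by -0.26 ± 0.12 in PEP1-like neurons (adjusted p = 0.183). Inside the PEP1-like class, the Cldn9-led cluster had 6.11 and 4.56 CPM in sham and 2.63 and 3.41 CPM in CCI (-0.79 ± 0.25, adjusted p = 0.0409), where 2.41% of all tests by cluster passed, a comparison chosen after the values by class had been seen. Cacna1e in the Fgg-led cluster of the same class had 33.2 and 28.6 CPM in sham and 38.3 and 25.6 CPM in CCI, which overlapped. In the remaining cluster of the class, led by Oprk1, it changed by -0.92 ± 0.36 (edgeR adjusted p = 0.196), which did not pass.

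Of the remaining members, Cacna1i in cLTMR-like neurons changed by 0.15 ± 0.08 (adjusted p = 0.275). Cacna1b in PEP5-like neurons changed by 0.34 (adjusted p = 0.0076, short of the limit on size). Cacna1d in NP3-like neurons had 0.804 and 0.586 CPM in sham and 1.93 and 2.79 CPM in CCI (1.66 ± 0.50, adjusted p = 0.0565). Both CCI libraries lay above both sham libraries for this low-count member, and it passed under 6 of the alternative settings. Cacna1g in PEP5-like neurons had 1.37 and 0.769 CPM in sham and 2.25 and 1.61 CPM in CCI (0.87 ± 0.49, adjusted p = 0.291).

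CCI-induced-like neurons, few of which came from the sham libraries, fell into 5 clusters, and the members set these apart as a description. The leading genes were Anxa1, Wfdc3, Ly6a, Ankrd1 and Crh. Cacna1h was low in the Anxa1-led (1.06 and 1.11 CPM in Male-CCI and Female-CCI) and Wfdc3-led clusters (1.64 and 1.27 CPM). It was at 21.9 and 25.8 CPM in the Ly6a-led, 21.4 and 21.7 CPM in the Ankrd1-led and 18.2 and 21.9 CPM in the Crh-led cluster.

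Cacna1c ranged from 25.6 to 34.6 CPM in the first 4 clusters and was at 6.23 and 6.30 CPM in the Crh-led cluster. Cacna1a was highest in the Ly6a-led cluster, at 80.2 and 77.7 CPM, and lowest in the Anxa1-led cluster, at 42.5 and 42.3 CPM. Cacna1b ranged from 67.3 to 112 CPM and Cacna1e reached at most 2.03 CPM. The subtype from which each of these clusters came is not given by the labels and was not assigned.

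**Figure D5:**
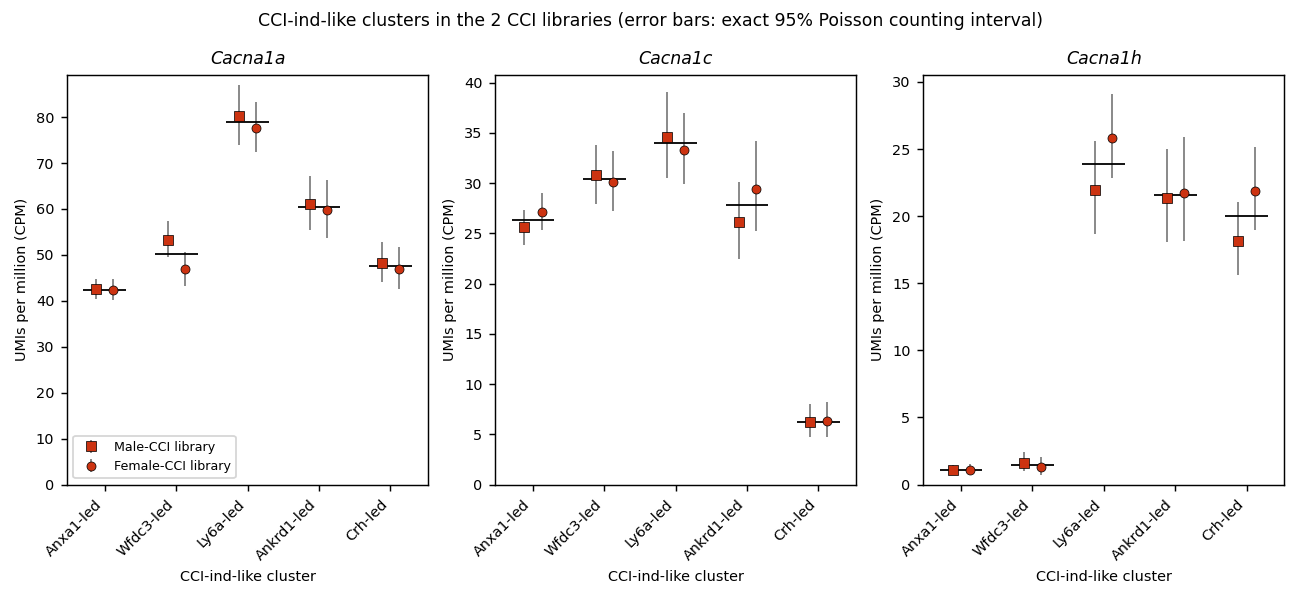
Level (CPM, vertical axis) of Cacna1a, Cacna1c and Cacna1h in the 5 CCI-induced-like clusters of the 2 CCI libraries (squares male, circles female), each cluster named by its leading gene. Cacna1h was near 1 CPM in the Anxa1-led and Wfdc3-led clusters and near 20 CPM in the other 3, and Cacna1c was lowest in the Crh-led cluster.

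The genes that work with the pores were read from fixed lists over the same 2 comparisons. Of 8 auxiliary subunit genes (alpha2delta and beta subunits), 8 were tested between CCI and sham, where 2 rose and 1 fell (median log2 change -0.23). Of all genes tested in that comparison 15.2% rose and 12.7% fell, with a median of -0.01, and the counts of the lists below stand beside these shares. Cacna2d1, the alpha2delta subunit that carries channels to the membrane and binds gabapentin, had 300 and 330 CPM in sham and 705 and 645 CPM in CCI (1.15 ± 0.07, adjusted p = 4.4e-05). Cacna2d2 had 81.3 and 76.6 CPM in sham and 44.6 and 39.9 CPM in CCI (-0.85 ± 0.06, adjusted p = 8.9e-05). The libraries of the surgeries did not overlap for either subunit. Cacna2d4 rose too, from a level that stayed at or below 0.12 CPM.

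Between Sprr1a+ and Sprr1a- neurons of CCI, 1 of 7 tested auxiliary subunit genes rose and 5 fell (median -0.71). Of all genes 20.9% rose and 24.7% fell in that comparison. Cacna2d1 rose by 1.29 ± 0.09 and Cacna2d2 fell by 2.59 ± 0.08 on the log2 scale. By class the Cacna2d1 difference was 3.95 ± 0.11 in NF1-like, 1.74 ± 0.14 in NF2-like and 1.33 ± 0.22 in NP1-like neurons, and all passed. Cacna1b was higher in the NF1-like class only, as given above. The NF1-like value spans the Ntng1-led and the Pvalb-led cluster.

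Of 24 channel regulators, 23 were tested between CCI and sham, and 1 rose and 6 fell (median -0.32), against the 15.2% and 12.7% of all genes. The one that rose was Rrad, a small GTPase that restrains calcium current. Rem2, of the same family, had 7.51 and 7.70 CPM in sham and 3.11 and 2.08 CPM in CCI (-1.49 ± 0.18, adjusted p = 0.00123). Among the 8 gamma and related subunits, 7 were tested, and 1 rose (Cacng1, at or below 0.08 CPM) and 2 fell (Cacng3 and Cacng4). The other pore genes Cacna1f and Cacna1s were below the count filter. Between Sprr1a+ and Sprr1a- neurons, 2 of 23 regulators rose and 10 fell (median -0.43) and 4 of 6 gamma subunits fell (median -1.39), against 20.9% and 24.7% of all genes.

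Calcium stores and extrusion held 20 genes, all tested, of which 3 rose and 6 fell between CCI and sham (median -0.25), against 15.2% and 12.7% of all genes. Itpr1, a receptor that releases calcium from the endoplasmic reticulum, had 6.01 and 8.50 CPM in sham and 14.3 and 15.6 CPM in CCI (1.10 ± 0.17, adjusted p = 0.00481). Slc8a2, a sodium-calcium exchanger, changed by -1.03 ± 0.09 and Atp2a3, a calcium pump of the reticulum, by -1.18 ± 0.12. Between Sprr1a+ and Sprr1a- neurons, 3 of these 20 genes rose and 13 fell (median -0.69), against 20.9% and 24.7% of all genes.

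Of 16 genes that read calcium, 15 were tested between CCI and sham, and 2 rose and 3 fell (median -0.17), shares near those of all genes (15.2% and 12.7%). Kcnma1, the large-conductance calcium-activated potassium channel, had 59.0 and 54.6 CPM in sham and 81.4 and 80.1 CPM in CCI (0.56 ± 0.05, adjusted p = 1.33e-04). Camk2d rose as well, and the small-conductance channels Kcnn1, Kcnn2 and Kcnn3 fell by 1.11, 0.98 and 0.87 on the log2 scale. Between Sprr1a+ and Sprr1a- neurons 2 of 15 rose and 7 fell (median -0.45), against 20.9% and 24.7% of all genes.

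Genes whose class pattern was most like a member's were ranked by Pearson's r across 10 sham classes among 10152 genes, as a description with no test, since the classes share libraries. Coro1c (0.97), Slc5a7 (0.97) and Abcc4 (0.97) were closest to Cacna1e, Sept11 (0.97), Fuca2 (0.97) and Gatad2a (0.96) to Cacna1h, and Nccrp1 (0.996), Slc51a (0.995) and Bmp15 (0.994) to Cacna1i. Zfp148 (0.98) was closest to Cacna1a, Upp2 (0.96) to Cacna1b, Plxnd1 (0.97) to Cacna1c and B3galt1 (0.95) to Cacna1d. The pattern of Cacna1g rests on a single class, and no like gene is given for it. Among the members themselves, Cacna1b and Cacna1e were most alike (0.75) and Cacna1c and Cacna1i least alike (-0.68).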

How the data were processed

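Single cells of 4 libraries (2 sham and 2 CCI, a male and a female pool each) were analysed. The authors made the deposited gene-by-cell UMI counts with Cell Ranger from reads aligned to mm10. The submitters' processing notes name version 2.1.1 and the matrix header 3.0.2. Per the file headers and values they are raw counts with no normalisation. Cell Ranger counts reads on the sense strand, and the genes of the matrices that overlap Cacna1a, Cacna1c, Cacna1d and Cacna1h lie on the opposite strand.

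Scrublet scores (scanpy 1.11.5, expected doublet rate 0.1) ranked the cells of each library, and as many top-scoring cells were removed as the study removed. Cells were kept with at least 1500 genes and at most 10% mitochondrial UMIs. Libraries were integrated in Seurat 5.3.0 (3000 variable genes, 20 principal components, resolution 0.8). A cluster took the name of a class if 3 or more of its markers each reached 10% of the cells and stood 2-fold or more above the other cells. The name was withdrawn where the leading genes of the cluster held more markers of another class. It was also withdrawn where they held no marker of the class and the gene that defines the class failed the same limits, or the cluster was shallow. These rules were set after the clusters had been seen, and class names may differ from those of the study. Shared cell barcodes numbered 215 to 513 per pair of libraries among all deposited cells and 0 to 6 among the cells kept.

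Counts were summed over the neurons of a library, or over its Sprr1a+ or Sprr1a- neurons (log1p of UMIs per 10000 above 1, or not), by class where a library gave at least 10 such cells, with the CCI-induced-like class left out of the tests by class. Sums were tested across all genes with edgeR 4.0.16 (TMM, low counts removed with filterByExpr, robust quasi-likelihood F test), with the library as block for comparisons within the CCI libraries. SE is the absolute log2 change divided by the square root of F. The adjustment runs over the genes of each fit. CPM divides by all UMIs of the summed cells. Tested on simulated counts for all neurons, CCI against sham (17233 genes), the edgeR fit called 55.2% of 1.5-fold, 86.6% of 2-fold and 97.0% of 4-fold changes and 14 unchanged genes. By class these shares were 41.8%, 82.1% and 95.5% for Sprr1a- PEP2-like neurons (12262 genes, 6 unchanged genes called). They were 22.4%, 83.6% and 95.5% for Sprr1a+ CCI against sham in NF2-like neurons (11778 genes, 15). For Sprr1a+ against Sprr1a- in NF2-like neurons they were 47.8%, 79.1% and 89.4% (11332 genes, 21). Each simulation changed 66 or 67 genes per fold, up or down at random, a smaller share than passed in the data. It therefore cannot show how TMM and the adjustment behave where many genes change.

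Alternatives were DESeq2 1.42.0, no filter, other cell filters and clusterings, other Sprr1a limits and leaving out each library. All members are named. Of each companion list, up to 3 genes with the largest passing change in each direction between CCI and sham are named or counted, and for each member up to 3 genes with the most similar class pattern among genes reaching 10 CPM. The members and lists were chosen with earlier results of these data known. Protein sequences and promoters of Cacna1a, Cacna1g and Cacna1h were not analysed here. The numbers 1 and 2 of the groups only mark male and female. The male-minus-female differences of sham and CCI correlated across 17227 genes with r = 0.298, from 2 pairs, and were not taken as a pairing.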

Additional observations from a re-analysis of the deposited data

Results flagged for a closer look

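For 3 members the shift between Sprr1a+ and Sprr1a- CCI neurons differed between NP1-like, NF1-like and NF2-like neurons by an interaction test (edgeR), which is why they are listed. All 3 calls were lost at no more than 5% mitochondrial UMIs and without integration, where 2 classes were tested in place of 3. NF1-like was the class left out, so those settings cannot show whether it differs. Cacna1b gave an adjusted p of 4.84e-05, with a log2 change of 0.94 in NF1-like neurons. Cacna1h gave 0.00676, with -2.30 among NF1-like neurons, -1.29 among NF2-like neurons and a level near 0 in NP1-like neurons. Cacna1c gave 0.0156, with -0.88 in NP1-like and 1.29 in NF1-like neurons, where the NP1-like value cannot be told apart from a difference between clusters and the NF1-like value rests on 1.22 to 5.29 CPM.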

How the results depend on the processing

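No call of a member changed its direction under the settings tried, while estimates that did not pass changed sign under some. Between CCI and sham over all neurons 3 members passed, and without each library in turn 2 to 3. For Sprr1a+ against Sprr1a- CCI neurons 4 passed, and 4 to 5 under the alternatives. Of 23 calls of members, 9 were lost under at least one alternative that tested the same classes, and the 3 calls of a difference between classes under alternatives that tested other sets of classes or cells. The counts by class moved more. The 1 passing test in Sprr1a- neurons became 2 with no filter, with doublets kept, at 3000 genes per cell, at resolution 0.4 or 1.2, and with injury genes or calcium channel genes left out of the clustering. It became 0 at 5% mitochondrial UMIs (NF1-like class not tested) or with Sprr1a+ set at any UMI. Without each library in turn it was 0 to 1 (0 without Female-CCI). Against sham, the 6 passing tests in Sprr1a+ neurons (3 classes) became 3 at 5% mitochondrial UMIs (2 classes) and 3 at any UMI (4 classes). They became 9 with doublets kept, 9 at resolution 0.4 and 8 without injury genes (4 classes each). Without integration 4 passed (2 classes), and without each library in turn 5 to 7 (4 classes without Male-CCI). Within CCI, the 6 became 18 with doublets kept (9 classes tested in place of 3), 9 at resolution 0.4 (4 classes) and 11 without injury genes (6 classes). They became 4 without integration (2 classes), 4 with DESeq2, 2 at 5% mitochondrial UMIs (2 classes) and 1 at any UMI (9 classes). By size alone they were 7 to 9 in a single CCI library, where no test can be made. The 3 members that differed between classes became 5 with doublets kept (9 classes) and 1 at any UMI (9 classes). They became 0 at 5% mitochondrial UMIs and 0 without integration (2 classes each, NF1-like not among them). The cause of these shifts was not tested. With clusters in place of classes, chosen after seeing the data, these 4 counts were 1, 5, 4 and 4.

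With sex as a replicate block the counts were 3, 1 and 6 for the comparisons of CCI with sham, the same as without it, and with no replicate block for the library within CCI they were 4 and 6, also the same. Over all genes, edgeR and DESeq2 called 3923 and 1863 tests in Sprr1a- neurons by class, 11407 and 5196 in Sprr1a+ against Sprr1a- CCI neurons by class, and 3316 and 1579 in the difference between classes.

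With 2 pools per surgery the precision is limited, and a class with few cells adds counting error. In NF1-like neurons Cacna1c rests on few UMIs, and Cacna1d and Cacna1g are low in most classes. Changes in Sprr1a+ neurons by class were tested in 3 classes. The other subtype classes held fewer than 10 such cells in at least 1 library, and the CCI-induced-like class was left out.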

Other observations

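The few Sprr1a+ neurons of the sham libraries (42 in Male-Sham and 144 in Female-Sham) also differed from the Sprr1a- neurons of their own libraries, given here as a description with no test. Cacna1e was at 0.397 and 0.499 CPM there, from 1 and 3 UMIs, against 15.6 and 16.4 CPM in Sprr1a- sham neurons. Cacna1h was at 5.95 and 3.32 CPM, against 27.4 and 26.2 CPM. Cacna1c was at 20.2 and 27.1 CPM, against 40.2 and 40.7 CPM, and Cacna1b at 67.0 and 67.0 CPM, against 87.3 and 89.9 CPM. Cacna1i gave 0 and 1 UMIs in these cells. These cells are few, and the classes they come from were not matched.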
